A study of Mus musculus with 6 samples.

Results

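The interferon response and antigen presentation genes described here are 39 mouse genes, taken as the rows whose Ensembl identifiers carry their symbols in a table of 23474 genes. All 39 were found, and 38 had a mean of at least 1 FPKM (fragments per kilobase of transcript, scaled to the depth of the library) over the libraries and were tested. The exception, Psmb10, an immunoproteasome subunit gene, is listed at 0 in every library. The 6 libraries are liver mRNA of male C57BL/6J mice, 17 weeks old, that had been fed from 5 weeks of age for 12 weeks. In the BT group, 3 libraries came from mice given a high-fat diet with 1.5% (w/w) Bangpungtongseong-san extract, an oriental herbal medicine, and in the HFD group 3 libraries came from mice given the high-fat diet without it. Both groups are thus obese-diet livers, and no chow-fed group was analysed here. The study placed 10 mice in each group. The labels do not tell if a library holds RNA of 1 mouse or of several, so p-values rest on the spread between libraries, which may be technical.

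Interferons are cytokines that bind receptors on nearly every cell and act through JAK kinases. Type I and type III interferons act on genes through the interferon-stimulated response element (ISRE), which is bound by a complex that holds STAT2 and IRF9, whereas interferon gamma acts through the gamma-activated sequence (GAS). The induced genes encode antiviral effectors, chemokines, a modified proteasome and the machinery that loads peptides onto MHC class I molecules. Hepatocytes carry class I molecules, while class II molecules are carried mainly by antigen-presenting cells such as dendritic cells, B cells and macrophages.

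The promoter sequences are shown for members that hold the core letters of these elements, which most of the members with a window did not. RefSeq windows on GRCm38.p6, from 250 bases before to 50 bases after the gene start, were found by symbol for 30 of the 39 genes. The build of the deposited values is not given in the sources used here. The ISRE core was searched on both strands as GAAA, any 2 bases and GAAA again, and the GAS core as TTCNNNGAA, which reads the same on both strands. The ISRE core was present for 10 of the 30 genes (33.3%), against 3.99% of all 27025 genes with a window. The GAS core was present for 4 of the 30 (13.3%), against 9.55% of all genes. Oas1a held both. A match is a description of the letters and not a binding site. In the stretches below, written 5′ to 3′ on the gene's strand, capitals mark the matches. The whole window is given for Ifih1, the sensor gene whose difference between diets passed the test, at chr2:62646206-62646505 on the minus strand, where the match begins 32 bases after the start. The others hold 30 bases on each side of the matches.
Ifih1: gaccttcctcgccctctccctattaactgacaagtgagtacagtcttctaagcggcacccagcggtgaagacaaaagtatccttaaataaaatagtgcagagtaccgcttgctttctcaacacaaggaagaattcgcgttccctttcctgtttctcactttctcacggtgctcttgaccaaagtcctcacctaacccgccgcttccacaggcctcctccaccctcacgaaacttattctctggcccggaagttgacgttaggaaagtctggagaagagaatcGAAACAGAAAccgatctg
Isg15 (chr4:156200845-156200926, minus strand): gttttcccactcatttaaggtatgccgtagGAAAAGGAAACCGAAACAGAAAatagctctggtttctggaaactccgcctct
Ifit1 (chr19:34640755-34640843, plus strand): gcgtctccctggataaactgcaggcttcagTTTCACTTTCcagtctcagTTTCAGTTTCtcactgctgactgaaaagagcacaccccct
Cxcl10 (chr5:92349063-92349132, minus strand): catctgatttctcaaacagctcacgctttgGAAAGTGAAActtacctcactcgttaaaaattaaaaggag
B2m (chr2:122147518-122147587, plus strand): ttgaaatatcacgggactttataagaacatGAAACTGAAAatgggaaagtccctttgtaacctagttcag
Irf1 (chr11:53769894-53769962, plus strand, GAS core): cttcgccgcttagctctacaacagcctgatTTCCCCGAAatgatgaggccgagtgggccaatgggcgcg
Psmb8 (chr17:34198068-34198136, plus strand, GAS core): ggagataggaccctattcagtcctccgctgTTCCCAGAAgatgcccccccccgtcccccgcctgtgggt

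A rough estimate of depth from low values was 13800000 to 15800000 fragments per library. The values were taken within a window set in advance, which limits what the estimate can be. Over all genes 1398 of 10476 (13.3%) differed between the diets, 630 higher and 768 lower with BT, and with median-of-ratios scaling 459 were higher and 862 lower. The sequencing codes given as sample descriptions hold one letter in every BT library and another in every HFD library, so what goes with the code and what goes with the diet cannot be told apart. Alb, the albumin gene, is listed at 24213 to 26535 FPKM in the BT libraries, at 22791 and 27895 FPKM in HFD replicates 1 and 2, and at 0 in HFD replicate 3. Since albumin mRNA is abundant in hepatocytes, a listed 0 was not read as absence, for Psmb10 either. The other hepatocyte markers Apoa1, Ttr, Tat and Cyp2e1 were at 163 FPKM or more in every library.

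Of the 38 genes tested, 1 was higher with BT and none was lower by limma's moderated test on log2(FPKM + 1), with Benjamini-Hochberg adjustment over all 10476 genes and a threshold of 0.05. At an unadjusted p under 0.05 there were 7 of 38, against 32.4% of all genes tested. Among all genes, 6.01% were called higher and 7.33% lower. The median change, BT minus HFD, was 0.26 on the log2 scale for the 38 genes and 0.07 for all genes tested. Of the 38 changes 31 were positive (81.6%) and 7 negative, while 59.2% of all genes had a positive change. All 3 BT values lay above all 3 HFD values for 8 genes, Ifit2, Ifi44, Ifih1, Parp9, Dtx3l, Psmb8, Tap1 and Tapbp (21.1% of the 38, against 23.2% of all genes tested). None of the 38 had all BT values below all HFD values, against 16.1% of all genes.

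The positive median was not kept without 1 library, BT replicate 3, and was smaller without HFD replicate 1. BT replicate 3 held the highest of the 6 values for 35 of the 38 genes (92.1%), while it did so for 27.1% of all genes tested. The 3 exceptions were Oas1g and Isg15, which were highest in HFD replicate 2, and Mx2, which was highest in BT replicate 1. The median log2 difference between BT replicate 3 and the mean of BT replicates 1 and 2 was 0.74 for the 38 genes and 0.05 for all genes tested. Within the BT group the median range over the 3 libraries was 0.88 on the log2 scale for these genes and 0.21 for all genes. Within the HFD group it was 0.38 for these genes and 0.34 for all genes. Without BT replicate 3, no member passed by limma, against 589 of all genes tested (5.62%). At an unadjusted p under 0.05 there were 4 of 38 (10.5%), against 26.2% of all genes. The median change of the 38 genes was then -0.05, with 17 positive and 21 negative values, while 55.9% of all genes had a positive change. Without HFD replicate 1 the median was 0.13, and 9 members turned sign. That library was the lowest of the 6 for 18 of the 38 genes (47.4%), against 18.1% of all genes tested. When any of the other 4 libraries was left out, the median was 0.30 to 0.42. Of the 3 genes highest elsewhere, Isg15 averaged 28.9 ± 10.9 FPKM in BT and 35.4 ± 16.9 FPKM in HFD libraries (SD, n = 3 each).

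**Figure D1:**
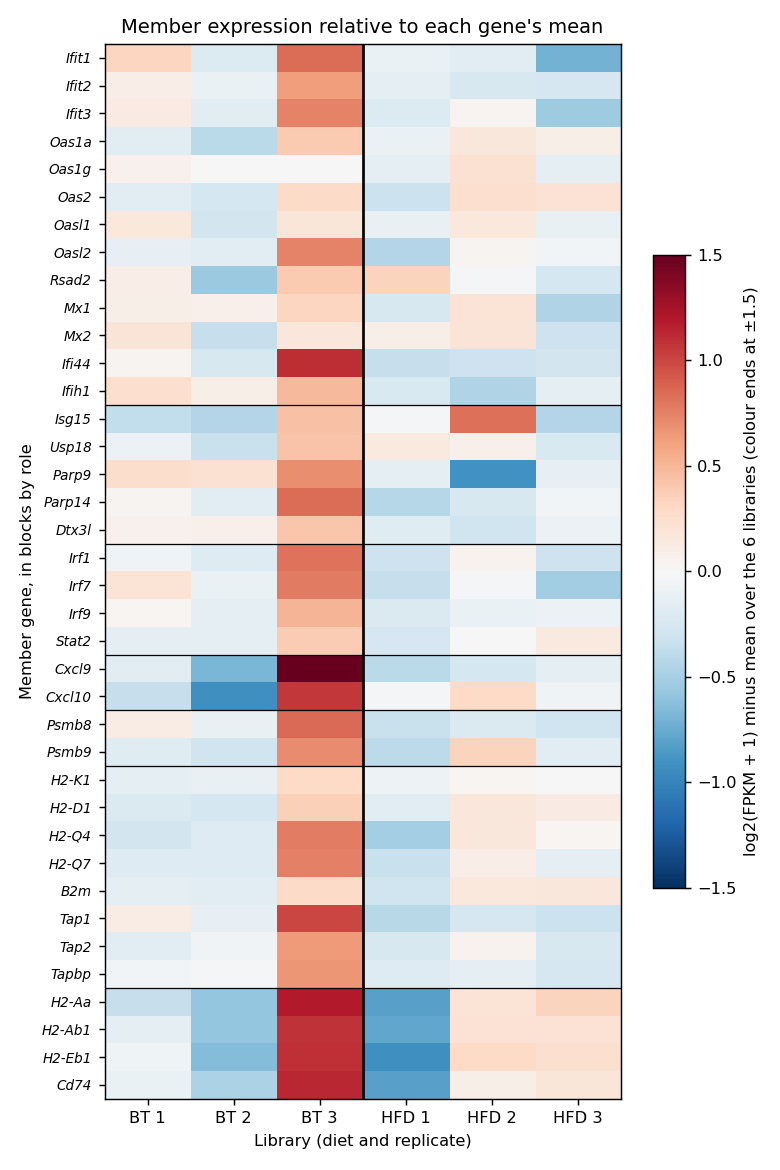
Level of the 38 tested genes (down the page, in blocks by role) in the 6 libraries (across), as log2(FPKM + 1) minus the gene's mean over the libraries, with colour ending at ±1.5. The column of BT replicate 3 is the highest for 35 of the 38 genes, and the class II block at the bottom is lowest in HFD replicate 1.

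**Figure D2:**
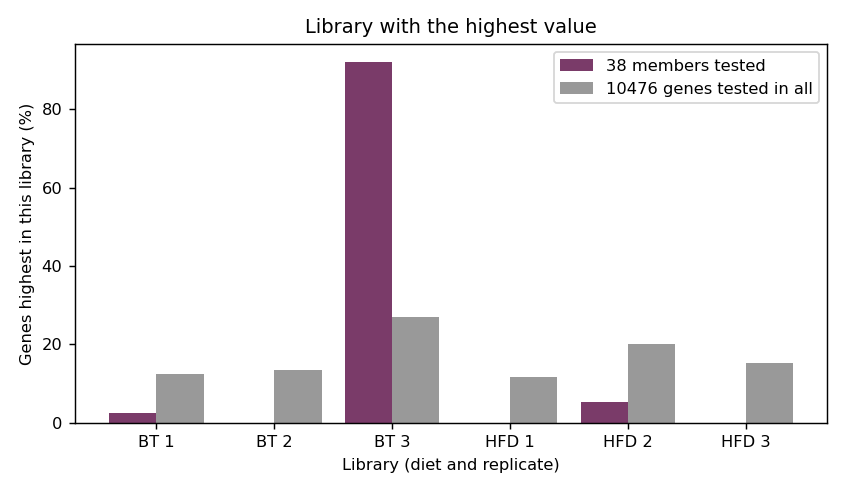
Share of genes (vertical axis, in percent, from 0) whose highest value lies in each library, for the 38 tested members and for all 10476 genes tested. BT replicate 3 holds 92.1% of the members and 27.1% of all genes.

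Antiviral effectors were represented by 13 genes, of which Ifih1 rose and the other 12 did not pass. Ifih1 encodes MDA5, a sensor of long double-stranded RNA in the cytoplasm, and lies on chromosome 2 at 62595798 to 62646255 (GENCODE M21, GRCm38). It stood at 10.7, 9.45 and 12.8 FPKM in the BT libraries, against 7.36, 6.22 and 7.86 FPKM in the HFD libraries. The groups did not overlap, and BT replicates 1 and 2 alone were 1.41 times the HFD mean. The log2 change was 0.55 ± 0.14 (SE, limma adjusted p = 0.0373). The call was lost on leaving out any 1 library other than HFD replicate 3 (adjusted p = 0.0565 to 0.121, changes of 0.45 to 0.65). It was also lost with no filter on low values (adjusted p = 0.08), with array weights (adjusted p = 0.0509), and after removal of the dependence on length and GC content (0.38, adjusted p = 0.064).

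The IFIT proteins bind viral RNA that lacks the host's cap methylation. Ifit1 was at 14.7, 9.91 and 21.5 FPKM in BT libraries and at 10.7, 10.3 and 6.66 FPKM in HFD libraries. BT replicate 3 was highest and BT replicate 2 lay among the HFD values, and the change was 0.64 ± 0.26 (adjusted p = 0.132). Ifit3, the most abundant of the 13, was at 24.8, 19.9 and 38.6 FPKM with BT and at 19.6, 23.3 and 15.3 FPKM with HFD. Its groups also overlapped, and it is a paralog of Ifit1 (0.46 ± 0.24, adjusted p = 0.207). Ifit2 (0.42) and Ifi44, an interferon-induced gene (0.61), had BT values above all HFD values without passing (adjusted p = 0.158 and 0.195). Ifi44 stood at 2.94, 2.24 and 7.23 FPKM with BT and 2.01, 2.09 and 2.16 FPKM with HFD, so that its mean difference lay mostly in BT replicate 3.

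The OAS enzymes make 2′-5′ oligoadenylates that switch on RNase L, and the log2 differences of their genes were closer to 0 than those of the IFIT genes. Oas1a, Oas1g and Oas2 were at -0.11, 0.03 and -0.10, and the OAS-like genes Oasl1 and Oasl2 by 0.04 and 0.29. None passed (adjusted p = 0.439 to 0.889). Oas1a and Oas1g are close paralogs, so their values are uncertain. Rsad2, which encodes viperin, an enzyme that makes a chain-terminating nucleotide, had a difference of -0.04 ± 0.25 (adjusted p = 0.925). The dynamin-like GTPase genes Mx1 and Mx2 had differences of 0.33 and 0.01 (adjusted p = 0.238 and 0.966), and Mx2 is annotated in C57BL/6J as a polymorphic pseudogene. These 8 genes had mean levels between 2.11 and 8.08 FPKM.

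ISG15 is a ubiquitin-like protein that is joined to other proteins and that USP18 removes. Isg15 was at 23.2, 22.1 and 41.5 FPKM in BT libraries, against 29.7, 54.4 and 22.1 FPKM in HFD libraries. HFD replicate 2 was the highest and the groups overlapped (-0.24 ± 0.33, adjusted p = 0.639). Usp18, which also limits signalling from the type I interferon receptor, averaged 18.2 ± 5.32 FPKM with BT and 17.8 ± 2.48 FPKM with HFD (SD, n = 3 each). The ADP-ribosyltransferase PARP9 and the ubiquitin ligase DTX3L work as a complex, and their genes lie head to head on chromosome 16. Parp9 was at 15.7, 15.2 and 21.5 FPKM with BT and at 11.5, 6.4 and 11.8 FPKM with HFD. It had the largest change of the 38 genes, 0.79 ± 0.23, and missed the threshold narrowly (adjusted p = 0.0521). Parp9 passed with a filter of 5 FPKM, with quantile normalization, or after the same removal (changes of 0.75 to 0.81). Dtx3l was at 12.4, 12.5 and 16.1 FPKM with BT, against 10.3, 9.37 and 11.0 FPKM with HFD. Its groups did not overlap either (0.38 ± 0.13, adjusted p = 0.0866). Exons of Dtx3l cover 9.4% of the exon bases of Parp9, and those of Parp9 cover 8.0% of Dtx3l. Parp14, a relative of Parp9, had a difference of 0.47 (adjusted p = 0.218).

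Among the 4 transcription factor genes none passed, while all 4 changes were positive and all 4 genes were highest in BT replicate 3. Of all genes tested, 59.2% had a positive change. Irf7, the factor that amplifies type I interferon production, was at 32.8, 26.2 and 49.0 FPKM in BT libraries and at 21.98, 27.9 and 19.3 FPKM in HFD libraries. BT replicate 2 lay below HFD replicate 2, and the change was 0.59 ± 0.22 (adjusted p = 0.109). Irf1, a factor induced by interferon gamma, stood at 30.2, 27.3 and 55.7 FPKM with BT and 24.9, 32.3 and 24.9 FPKM with HFD. BT replicates 1 and 2 were thus within the HFD range, and BT replicate 3 was 2.04 times the HFD mean (0.39 ± 0.25, adjusted p = 0.307). Irf9, the DNA-binding subunit of the ISRE complex, was at 27.0, 24.1 and 38.0 FPKM with BT, against 22.7, 24.7 and 24.8 FPKM with HFD, so that BT replicate 2 lay within the HFD range (0.27 ± 0.16, adjusted p = 0.279). Its partner gene Stat2 averaged 22.9 ± 5.1 FPKM with BT and 21.4 ± 2.97 FPKM with HFD (SD, n = 3 each, 0.08 ± 0.17, adjusted p = 0.769).

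**Figure D3:**
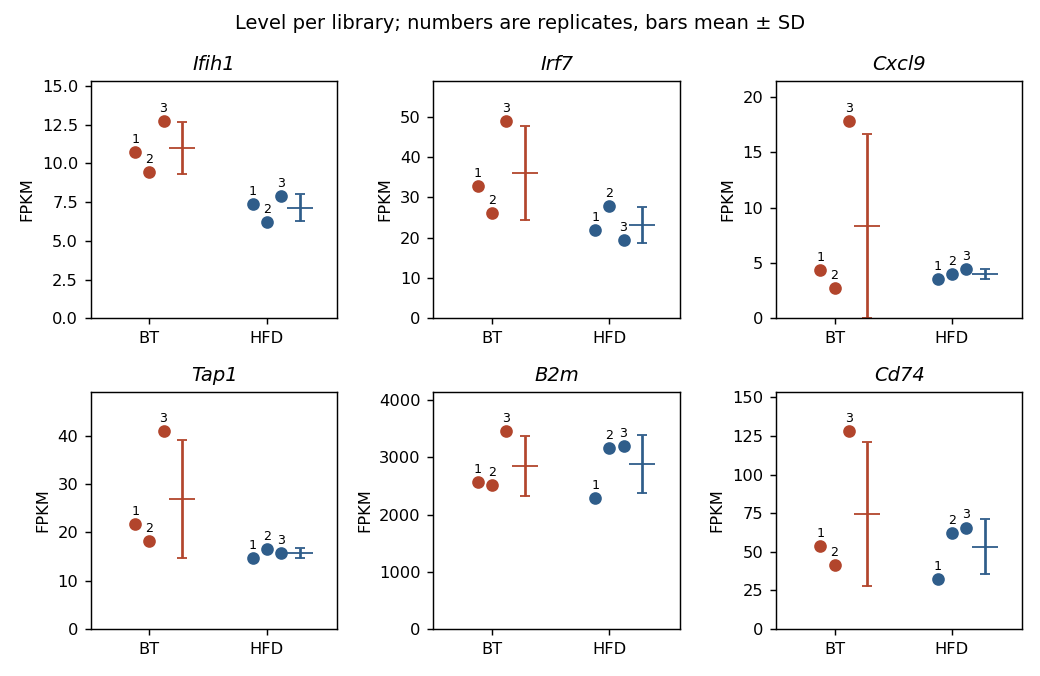
FPKM (vertical axis, from 0) of 6 genes in each library, BT left of HFD, with the replicate number beside each point and the mean ± SD of 3 libraries as a bar. Ifih1 has no overlap between diets, whereas Cxcl9 and Cd74 have 1 high BT library among values that overlap with HFD. For Irf7, BT replicates 1 and 3 lie above all HFD values and BT replicate 2 lies among them.

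The chemokines CXCL9 and CXCL10 draw T cells and NK cells through the receptor CXCR3. Their genes had the widest spread of all roles within the BT group, with a median log2 range of 2.16, against 0.31 within the HFD group. Cxcl9 was at 4.38, 2.74 and 17.9 FPKM in BT libraries, against 3.51, 3.98 and 4.44 FPKM in HFD libraries. BT replicate 3 was 5.02 times the mean of the other BT libraries, the highest such ratio among the 38 genes, and BT replicate 2 was below all HFD values. The change was 0.55 ± 0.50 (adjusted p = 0.473), and without BT replicate 3 it was -0.15 ± 0.19. Cxcl10 was at 7.6, 4.78 and 21.9 FPKM with BT and at 9.68, 12.4 and 9.5 FPKM with HFD. Here both other BT libraries were below all HFD libraries and BT replicate 3 was above them (-0.14 ± 0.42, adjusted p = 0.845). Without BT replicate 3 the change of Cxcl10 was -0.70 ± 0.20 (adjusted p = 0.0764).

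The immunoproteasome subunits PSMB8 and PSMB9 replace constitutive subunits and alter which peptides are made for class I molecules. Psmb8 was at 9.35, 7.87 and 16.2 FPKM in BT libraries, against 6.64, 7.29 and 6.83 FPKM in HFD libraries. The groups did not overlap, but the change missed the threshold (0.56 ± 0.22, adjusted p = 0.124) and was 0.28 without BT replicate 3. Psmb9 stood at 20.7, 19.0 and 39.4 FPKM with BT and 17.8, 30.02 and 21.2 FPKM with HFD, with overlapping groups (0.15 ± 0.28, adjusted p = 0.734). Psmb8, Psmb9, Tap1 and Tap2 lie next to each other on chromosome 17, where 12 of the 39 genes lie between 33915899 and 35443773 (GENCODE M21, GRCm38).

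Class I antigen presentation had 8 genes, none of which passed, and all 8 were highest in BT replicate 3. The light chain gene B2m was the most abundant of the 39, at 2567, 2521 and 3456 FPKM in BT libraries and 2297, 3160 and 3193 FPKM in HFD libraries. Its groups overlapped, with BT replicate 3 the highest and HFD replicate 1 the lowest library. The change was -0.02 with a 95% interval of -0.44 to 0.40 (limma, adjusted p = 0.957). The heavy chain gene H2-K1 was at 975, 992 and 1310 FPKM with BT, against 1011, 1094 and 1065 FPKM with HFD (0.03, interval -0.28 to 0.35, adjusted p = 0.881). The log2 difference was -0.08 for H2-D1, 0.20 for H2-Q4 and 0.25 for H2-Q7 (adjusted p = 0.518 to 0.793). Reads of these heavy chain paralogs can be shared, so their values are uncertain, and exons of another gene cover 19.1% of those of H2-Q4.

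TAP1 and TAP2 form the transporter that moves peptides into the endoplasmic reticulum. Tap1 was at 21.7, 18.3 and 40.9 FPKM with BT and at 14.7, 16.6 and 15.8 FPKM with HFD. It did not overlap between diets, with 0.66 ± 0.25 (adjusted p = 0.113), and 0.33 ± 0.14 without BT replicate 3. Tap2 had a difference of 0.29 (adjusted p = 0.37), and other exons cover 18.5% of its exon bases. Tapbp, which encodes tapasin, the bridge between TAP and class I molecules, was at 25.1, 25.7 and 41.7 FPKM with BT, against 22.5, 23.3 and 21.5 FPKM with HFD. Its groups did not overlap (0.40 ± 0.18, adjusted p = 0.165), although exons of other genes cover 29.0% of its exon bases.

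None of the 4 class II genes passed, and all 4 had the same highest and the same lowest library. Cd74, the invariant chain that guards the class II groove, was at 54.0, 41.3 and 128 FPKM in BT libraries, against 32.6, 61.9 and 65.7 FPKM in HFD libraries. H2-Ab1, a class II beta chain gene, was at 20.5, 15.0 and 49.6 FPKM with BT and at 12.8, 26.6 and 26.6 FPKM with HFD. For both genes BT replicate 3 was the highest and HFD replicate 1 the lowest library, and the changes were 0.36 ± 0.41 and 0.24 ± 0.42 (adjusted p = 0.558 and 0.716). The same held for H2-Aa and H2-Eb1, the genes of a class II alpha and a class II beta chain. BT replicate 3 was 2.69 to 3.24 times the mean of the other BT libraries for the 4 genes. HFD replicate 1 was 0.42 to 0.51 times the mean of the other HFD libraries. Without BT replicate 3 all 4 changes were negative (-0.37 to -0.11), and 3 of 4 were negative without HFD replicate 1 (-0.18 to 0.048).

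**Figure D4:**
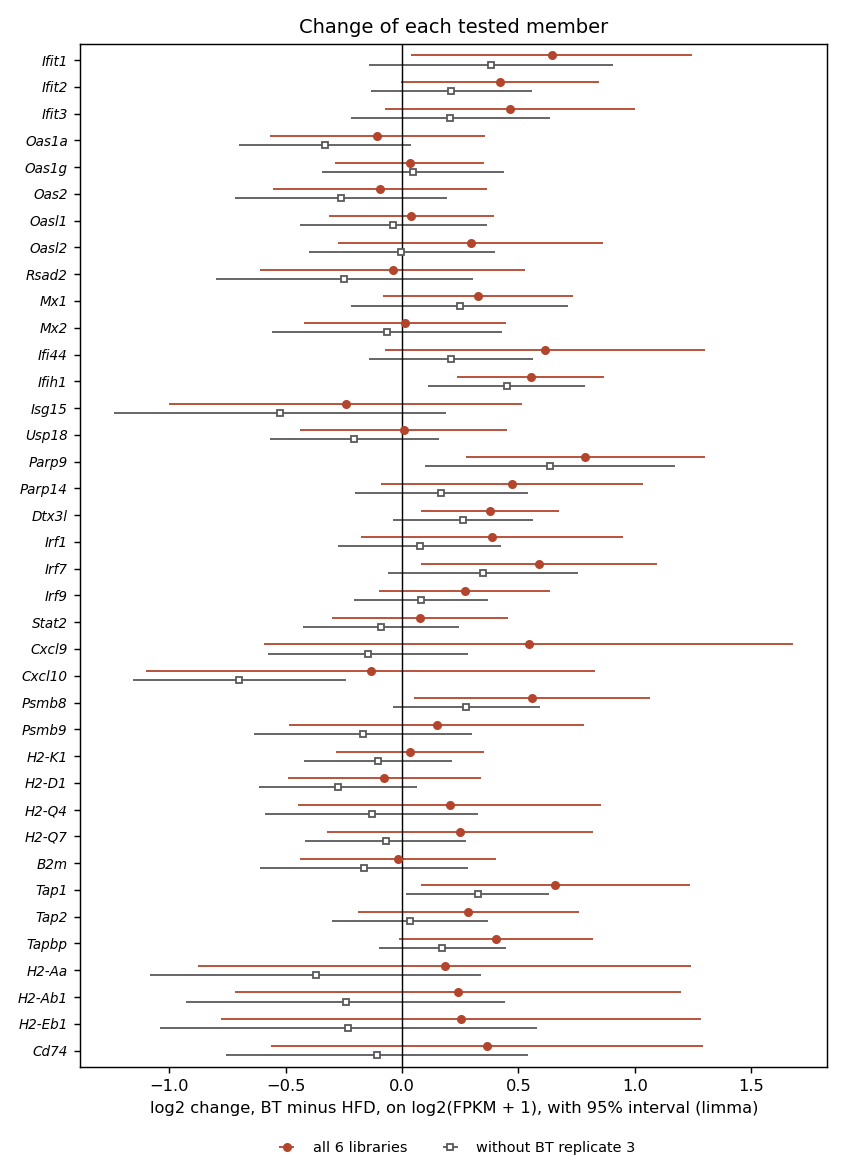
Change of each tested gene between diets, BT minus HFD on log2(FPKM + 1), with limma's 95% interval, from all 6 libraries (filled circles) and without BT replicate 3 (open squares). The median moves to -0.05 without that library, from 0.26 with all libraries.

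Further genes of the same pathways were taken from 5 lists, and 5 of their 71 tested members passed (7.04%, against 13.3% of all genes tested), 2 higher and 3 lower with BT. Among receptors and JAK-STAT genes, 1 of 12 rose and none fell. This was Ifnar1, a chain of the type I interferon receptor, at 13.4, 12.8 and 12.7 FPKM with BT and 9.71, 9.59 and 9.92 FPKM with HFD (0.38 ± 0.10, adjusted p = 0.0387). BT replicate 3 was not the highest library for Ifnar1, but it was for 6 of the 12 genes of this list. In the lists that follow, it was highest for 7 of 10, 18 of 29, 9 of 13 and 5 of 7 genes. Over all genes tested the share was 27.1%. Of 10 nucleic acid sensors and adaptors none passed. Tlr3, an endosomal sensor of double-stranded RNA, had the smallest p (0.49 ± 0.17, adjusted p = 0.0802). In these 10 genes 3 had an unadjusted p under 0.05, a share near the 32.4% of all genes.

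Among 29 other interferon-stimulated genes 2 fell and none rose, and the 6.9% that fell is near the 7.33% of all genes called lower. Ifitm2 was at 79.4, 77.0 and 80.4 FPKM in BT libraries, against 140, 176 and 135 FPKM in HFD libraries (-0.91 ± 0.12, adjusted p = 0.00644). Ifitm1 was at 4.19, 3.89 and 6.14 FPKM with BT and at 9.02, 11.6 and 12.3 FPKM with HFD (-1.07 ± 0.17, adjusted p = 0.0121). Both encode membrane proteins that restrict the entry of viruses, and their BT values lay below all HFD values, but as close paralogs they can share reads. Ifitm2 stayed past the threshold whichever library was left out, while Ifitm1 missed the threshold without BT replicate 1 (adjusted p = 0.0569). Of 13 further class I pathway genes 1 rose and 1 fell. Erap1, the peptidase that trims class I peptides, was at 17.5, 16.5 and 22.5 FPKM with BT, against 11.8, 8.73 and 12.5 FPKM with HFD (0.73 ± 0.16, adjusted p = 0.0273). H2-Q10, which encodes a secreted class I molecule made by the liver, was at 1389, 1292 and 1332 FPKM with BT and at 1865, 2118 and 2001 FPKM with HFD (-0.57 ± 0.11, adjusted p = 0.0182). Of 7 further class II pathway genes none passed. The smallest p was that of Ifi30, a lysosomal thiol reductase gene (-0.59 ± 0.21, adjusted p = 0.0944). Calls of Ifnar1, Erap1 and H2-Q10 were each lost on leaving out any 1 BT library (adjusted p = 0.0579 to 0.15) and with no filter on low values (adjusted p = 0.0559 to 0.0686). Ifnar1 was also lost without HFD replicate 1 or 2 and with median-of-ratios scaling, Erap1 without HFD replicate 2, and H2-Q10 with quantile normalization.

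The summed markers of monocytes, T and NK cells, neutrophils and dendritic cells were also highest in BT replicate 3. In whole liver, more cells of a type and more RNA per cell cannot be told apart. Markers of infiltrating monocytes (Ccr2, Ly6c2, Itgam, Lyz2 and Cx3cr1) summed to 38.6, 27.2 and 66.9 FPKM in BT libraries, against 27.7, 43.1 and 42.3 FPKM in HFD libraries. Lyz2 made up most of this sum, at 36.8, 25.4 and 59.7 FPKM with BT and 25.8, 40.1 and 38.3 FPKM with HFD. The 10 T cell and NK cell markers summed to 2.83, 2.67 and 6.94 FPKM with BT and 1.49, 2.58 and 2.5 FPKM with HFD. The 5 neutrophil markers summed to 3.23, 4.29 and 16.2 FPKM with BT, against 5.0, 6.0 and 6.44 FPKM with HFD, and of these Ly6g is listed at 0 in every library. The 6 dendritic cell markers summed to 0.922, 1.24 and 4.2 FPKM with BT and 0.972, 1.33 and 1.75 FPKM with HFD. Single markers in these 4 lists that were highest in another library were Cx3cr1, Cd3d and Nkg7. The part of these cells in the levels of the interferon and antigen presentation genes was not tested.

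The 8 Kupffer cell and macrophage markers summed to 101, 79.6 and 102 FPKM with BT and to 77.0, 97.1 and 89.5 FPKM with HFD, so that BT replicates 1 and 3 were close to each other and above all HFD libraries. B cell markers (5 genes, with Ms4a1 listed at 0) and stellate cell markers (6 genes, with Lrat at 0) had their highest sum in HFD replicate 3. So did the 6 sinusoidal endothelial markers, of which Clec4g is at 0, with 36.3, 35.9 and 29.4 FPKM in BT libraries and 33.6, 25.5 and 40.0 FPKM in HFD libraries. All 10 T cell and NK cell markers and all 6 dendritic cell markers had a mean under 1 FPKM and were not tested. Among them Ifng, the interferon gamma gene, was at 0.0705, 0.0696 and 0.226 FPKM with BT, against 0.0627, 0 and 0.0648 FPKM with HFD. Of the lists with tested members, none of 8 macrophage, 3 monocyte, 3 neutrophil, 2 B cell or 5 endothelial markers passed between the diets by limma, with 3, 0, 0, 1 and 0 of them at an unadjusted p under 0.05. Of all genes tested, 13.3% passed and 32.4% had an unadjusted p under 0.05. Among hepatocyte and stellate cell markers 1 of 5 each passed. Ttr, the transthyretin gene, fell by 0.755 and Col3a1, a collagen gene, fell by 1.36 on the log2 scale (adjusted p = 0.0157 and 0.0354, and up to 0.0823 and 0.121 on leaving out 1 library).

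**Figure D5:**
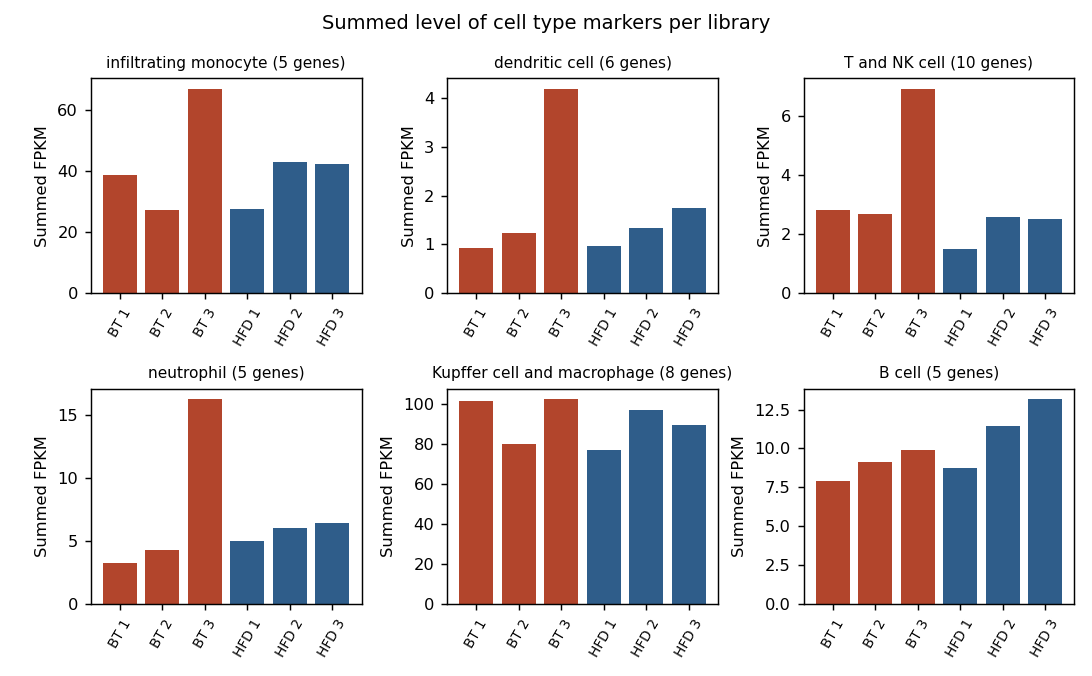
Summed FPKM (vertical axis, from 0) of the markers of 6 cell types in each library, BT libraries left of HFD libraries. Monocyte, dendritic cell, T and NK cell and neutrophil sums are highest in BT replicate 3, and B cell sums are highest in HFD replicate 3.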

How the data were processed

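Gene expression in liver was deposited by the authors as FPKM, 1 column per library and 3 libraries per diet. Cufflinks 2.1.1, STAR 2.4.0 and CASAVA 1.8.2 are listed in the submitters' processing notes, without their roles. The sources used here do not name a genome build, an annotation or a strand setting. Symbols, spans and exon overlaps came from GENCODE M21 (GRCm38), which named 22671 of 23474 identifiers. Groups and replicate numbers came from the sample titles, and all columns were used.

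Genes averaging 1 FPKM or more, 38 members among them, were tested with limma 3.58.1 in R 4.3.3 on log2(FPKM + 1), a scale that understates changes of low genes, with a variance trend and no covariates. The 3 libraries per diet would not let an exact permutation test go below p = 0.1, so none is given. The fit was tested on simulated data. Depth was estimated from FPKM times length in kilobases of genes with 1 transcript, using only values from 0.03 to 0.1. That window limits the outcome, so the estimate is no independent measure of depth. Counting error is largest for low genes. Python 3.11.15 and matplotlib 3.10.9 made the figures.

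Members and gene lists were chosen with earlier results of these data known. Values in every library are given for members past the threshold and, per role, for the 2 with the smallest p and the most abundant one. H2-K1 is given in every library as well, outside this rule. Ifi44 was added after its values were seen, and so were Ifng, Ttr, Col3a1 and Alb. Alternatives were other pseudocounts, filters, scalings, variance settings, a replicate block, removal of each library's length and GC trend, and leaving out each library.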

Additional observations from a re-analysis of the deposited data

How the results depend on the processing

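Of 17 alternatives, the count of members past the threshold was 1 in the reported fit, 0 with no filter on low values or with array weights, 2 with a filter of 5 FPKM, quantile normalization or a replicate block, and 0 to 1 on leaving out 1 library. All of these were higher with BT, and none was lower in any alternative. Over all genes the count was 1398, against 545 without a filter and 173 to 1536 on leaving out 1 library (173, 324 and 589 when the omitted library was BT replicate 1, 2 or 3, and 621 for HFD replicate 2). Of the other interferon and antigen genes 5 passed, against 2 without a filter, 8 with quantile normalization, 13 with a replicate block and 1 to 7 on leaving out 1 library. The labels do not say if replicate numbers pair the samples, and the reported fit has no block. Deviations of same-numbered libraries correlated at 0.163, 0.097 and 0.147, and each library correlated best with its own number. Differently numbered libraries correlated at -0.134 to 0.009, so a pairing is not excluded. With the replicate block Parp9 and Ifih1 passed (adjusted p = 0.0172 and 0.018), and 1808 of all genes.

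The sign of the change held in all alternatives run for 16 of 38 members. None of the 22 others passed in any alternative. The sign turned for Oas1g (-0.016), Oasl1 (-0.023), Mx2 (-0.044), Usp18 (-0.06) and H2-K1 (-0.035) with median-of-ratios scaling. With quantile normalization it turned for Oas1g (-0.071), Oasl1 (-0.027), Mx2 (-0.079), H2-D1 (0.126) and B2m (0.11). On rescaling to TPM it turned for Rsad2 (0.035), H2-D1 (0.016) and B2m (0.075), with array weights for Usp18 (-0.06) and H2-K1 (-0.012), and after removal of the length and GC trend for Mx2 (-0.1) and H2-D1 (0.083). On leaving out 1 library the changes ranged from -0.33 to 0.067 for Oas1a, -0.031 to 0.16 for Oas1g, -0.28 to 0.012 for Oas2, -0.039 to 0.19 for Oasl1, -0.003 to 0.46 for Oasl2, -0.25 to 0.23 for Rsad2 and -0.14 to 0.19 for Mx2. They ranged from -0.52 to 0.11 for Isg15, -0.205 to 0.17 for Usp18, -0.092 to 0.16 for Stat2, -0.15 to 1.02 for Cxcl9, -0.70 to 0.29 for Cxcl10 and -0.17 to 0.35 for Psmb9. For antigen presentation they were -0.10 to 0.11 for H2-K1, -0.28 to 0.04 for H2-D1, -0.13 to 0.39 for H2-Q4, -0.07 to 0.41 for H2-Q7, -0.17 to 0.064 for B2m, -0.37 to 0.52 for H2-Aa, -0.24 to 0.59 for H2-Ab1, -0.23 to 0.64 for H2-Eb1 and -0.11 to 0.69 for Cd74. Leaving out BT replicate 3 turned the sign of 14 members. The cause was not tested. With 3 libraries per diet and changes of the size seen here, the intervals of most members include both signs.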
